A study of Mus musculus with 11 samples.

Results

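Colon mucosa of wild-type mice was compared between an early and a late stretch of injury by dextran sulfate sodium (DSS), a sulfated polysaccharide that damages the colonic epithelium and brings on colitis, 1 cell type at a time. The members were all cells of the 6 frozen single-cell libraries of experimental days 6, 9 and 12 (early) and days 16, 19 and 23 (late). They numbered 22696 of the 55603 cells in the 11 libraries of the study, 11164 early and 11532 late. All 6 libraries came from mice of about 2 months that had received 3% DSS for 6 days. Each was a pool of cells from 8 mice, and all belonged to the batch A of the authors' cell table, which was stored frozen. No library stood for the same day as another, so the spread within a side also holds the time course, and the p-values measure only the spread between these 6 pools. A frozen library of uninjured mice (day 0) is given beside the results, as are 3 libraries of fresh cells from 3 mice each (batch C, days 7, 11 and 18). The authors had assigned every cell to 1 of 28 types. Of those, the T cells, B cells, plasma cells, dendritic cells, goblet cells, lymphatic endothelial cells and myofibroblasts are described here.

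The lamina propria below the colonic epithelium is a main site of antibody production. B cells switch there from IgM to IgA, mature into plasma cells and secrete dimeric IgA, which the epithelium carries into the lumen. Goblet cells release the mucus that keeps bacteria from the surface. Lymphatic vessels drain fluid and cells, and myofibroblasts next to the crypts contract and supply signals for epithelial growth. In DSS colitis, neutrophils and monocytes enter first and lymphocytes gather as the mucosa is rebuilt.

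The libraries held 2465, 4596 and 4103 cells early and 3793, 4454 and 3285 cells late, with 7963048 to 17237419 UMIs (unique molecular identifiers, each 1 captured RNA molecule) per library. The median UMI count of a cell was between 2130.5 and 2587, with no order between the sides. Mitochondrial UMIs of the median cell took 7.15%, 4.91% and 6.80% early and 8.80%, 8.98% and 7.92% late, higher in every late library, and its part in the results was not tested. Any pair of these libraries shared at most 41 cell barcodes, 0.999% of the smaller library. Gene levels are CPM, the count of a gene scaled to a common total of UMIs (counts per 1000000) of a cell type in a library. Changes are late against early, from edgeR on counts summed per library and type, and a gene was called at a Benjamini-Hochberg adjusted p under 0.05 over all genes tested in that type. A library counted for a type where it held at least 10 of its cells.

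Plasma cells, B cells and goblet cells took larger shares of the late libraries, and neutrophils a smaller one. Plasma cells made up 1.42, 0.522 and 1.58% of all cells on days 6, 9 and 12 and 6.59, 8.19 and 6.18% on days 16, 19 and 23, against 2.03% in the uninjured library. The lowest late share was thus far above the highest early one, and the change was 5.95-fold (log2 2.58 ± 0.53 (SE), edgeR adjusted p = 0.0011). It was called under every scaling and every left-out library that was run. B cells rose from 2.47, 5.90 and 7.90% early to 14.8, 15.4 and 17.6% late (log2 1.55 ± 0.50 (SE), edgeR adjusted p = 0.0315), also beyond the uninjured level of 2.91%. Goblet cells were at 0.609, 0.348 and 0.244% early and 0.896, 1.06 and 2.37% late, with day 23 the highest and all of the frozen DSS libraries under the 3.46% of the uninjured mucosa (log2 1.88 ± 0.57 (SE), edgeR adjusted p = 0.0315). Neutrophils, none of which were annotated in the uninjured library, fell from 21.5, 34.3 and 38.6% to 14.1, 11.8 and 7.43% (log2 -1.50 ± 0.49 (SE), edgeR adjusted p = 0.0315). In the fresh libraries of days 7, 11 and 18, plasma cells were at 0.0661, 0.0894 and 2.79%, goblet cells at 1.94, 1.99 and 9.20% and neutrophils at 19.9, 46.8 and 17.4%, while B cells, at 2.17, 8.04 and 5.43%, were lower on day 18 than on day 11. In all, 5 of 28 types were called (17.9%), the other one being mast cells, with 2, 6 and 0 cells early and 0 in each late library, and 9 types did not overlap between the sides (32.1%). The median change over the 28 types was 0.53 on the log2 scale. Shares must add to 100%, so the types do not move independently, and a change is best read against that median. With TMM scaling of the cell counts the changes of B cells and goblet cells were 1.03 and 1.44 and no longer called. The changes of B cells, goblet cells and neutrophils also lost their calls in 4 of 6 leave-outs each, without days 16, 19 and 23 in all 3 types, with log2 changes between 1.21 and 1.92, 1.32 and 2.26, and -1.71 and -1.28. A permutation test of 3 against 3 libraries cannot give a two-sided p below 0.1, and each of these 4 types reached that value.

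**Figure D1:**
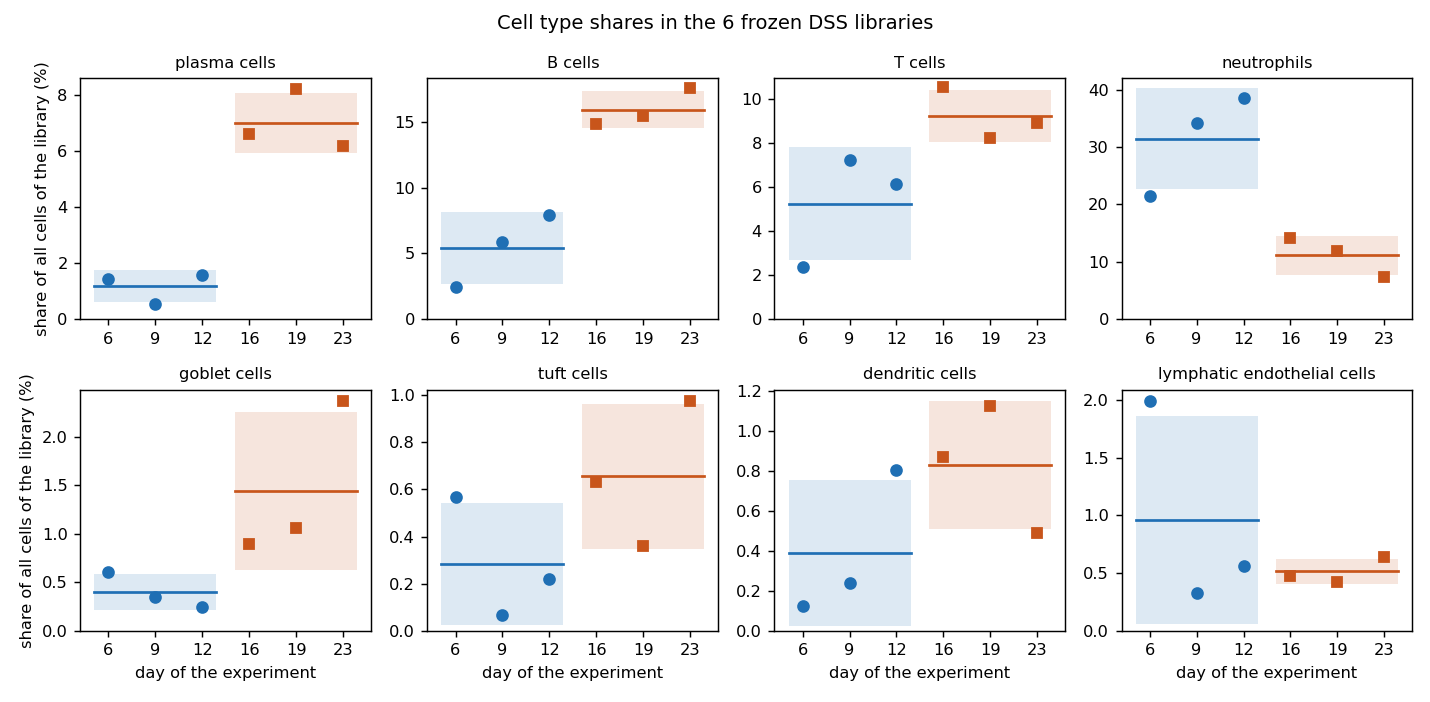
Share of all cells of a library (%, vertical axes from 0) taken by 8 cell types in the 6 frozen DSS libraries, by day. Circles are days 6, 9 and 12 and squares days 16, 19 and 23, lines are the means of 3 libraries and bands ± 1 SD. The late plasma cell shares lie between 6.18% and 8.19%, above all 3 early ones, whereas the dendritic and lymphatic shares overlap.

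The other described types did not pass the test. T cells were at 2.35, 7.25 and 6.17% early and 10.5, 8.24 and 8.95% late, with no overlap between the sides (log2 0.81 ± 0.49 (SE), edgeR adjusted p = 0.288). Dendritic cells were at 0.122, 0.239 and 0.804% and 0.87, 1.12 and 0.487% (log2 1.05 ± 0.60 (SE), edgeR adjusted p = 0.28), and tuft cells, the chemosensory cells of the epithelium, at 0.568, 0.0653 and 0.219% and 0.633, 0.359 and 0.974% (log2 1.30 ± 0.64 (SE), edgeR adjusted p = 0.247). Without day 12 the dendritic change was 2.12 and called, and without day 6 the tuft change was 2.19 and called. Lymphatic endothelial cells took 1.99, 0.326 and 0.561% early and 0.475, 0.427 and 0.639% late, and the day 6 library decided the sign, since without it the log2 change was 0.21 in place of -0.85. Ratios within a compartment gave a further view. Goblet cells were 4.76%, 4.21% and 2.65% of epithelial cells early and 6.50%, 8.08% and 9.77% late (exact two-sided permutation p = 0.1, the smallest possible). Lymphatic cells were 64.5%, 31.3% and 29.5% of all endothelial cells early and 24.3%, 20.7% and 23.6% late (exact p = 0.1). Plasma cells as a share of B and plasma cells together overlapped (36.5%, 8.14% and 16.7% against 30.8%, 34.7% and 26.0%, exact p = 0.4). In dissociated tissue, more cells of a type and better survival of that type through digestion, freezing and thawing cannot be told apart.

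Antibody genes and neutrophil genes were detected in nearly all other cell types and moved with the comparison. Over all cells of a library, the immunoglobulin kappa chain Igkc stood at 6795, 5182 and 12528 CPM early and 73612, 66094 and 72776 CPM late, while the neutrophil alarmin S100a8 stood at 16674, 34648 and 43855 CPM early and 4685, 4713 and 1759 CPM late. Igkc was called higher in 18 of the 20 types with enough cells to test, the IgA heavy chain Igha in 17 and the joining chain Jchain in 16. In the other direction, the neutrophil gene Retnlg was called lower in 11 types, Wfdc17 in 10, S100a8 in 9 and its partner S100a9 in 8. The described types followed. In goblet cells, which make no antibody, Igkc was at 387, 301 and 492 CPM early and 2916, 2684 and 2591 CPM late, and in myofibroblasts at 294, 249 and 481 CPM and 3337, 2234 and 2446 CPM. The summed CPM of 7 neutrophil markers was 2681 to 7139 in early and 443 to 1831 in late T cells, and 3802 to 5351 and 284 to 816 in B cells. It was 1950.3 to 11876 and 175 to 362 in goblet cells, 2403 to 4549.6 and 192 to 352 in lymphatic cells and 2349 to 2839 and 136 to 433 in myofibroblasts. The sum of 5 plasma cell markers was 64.6 to 256 CPM early and 739.8 to 900.1 CPM late in T cells, and 109.9 to 182 and 385 to 544 CPM in goblet cells. Plasma cells held Igkc at 273790, 230340 and 245710 CPM early and 339480, 335940 and 386330 CPM late. Whether the UMIs found in other types were made by those types was not tested. Antibody and neutrophil genes called outside their own cell types are therefore counted here but not described as changes of those cells.

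**Figure D2:**
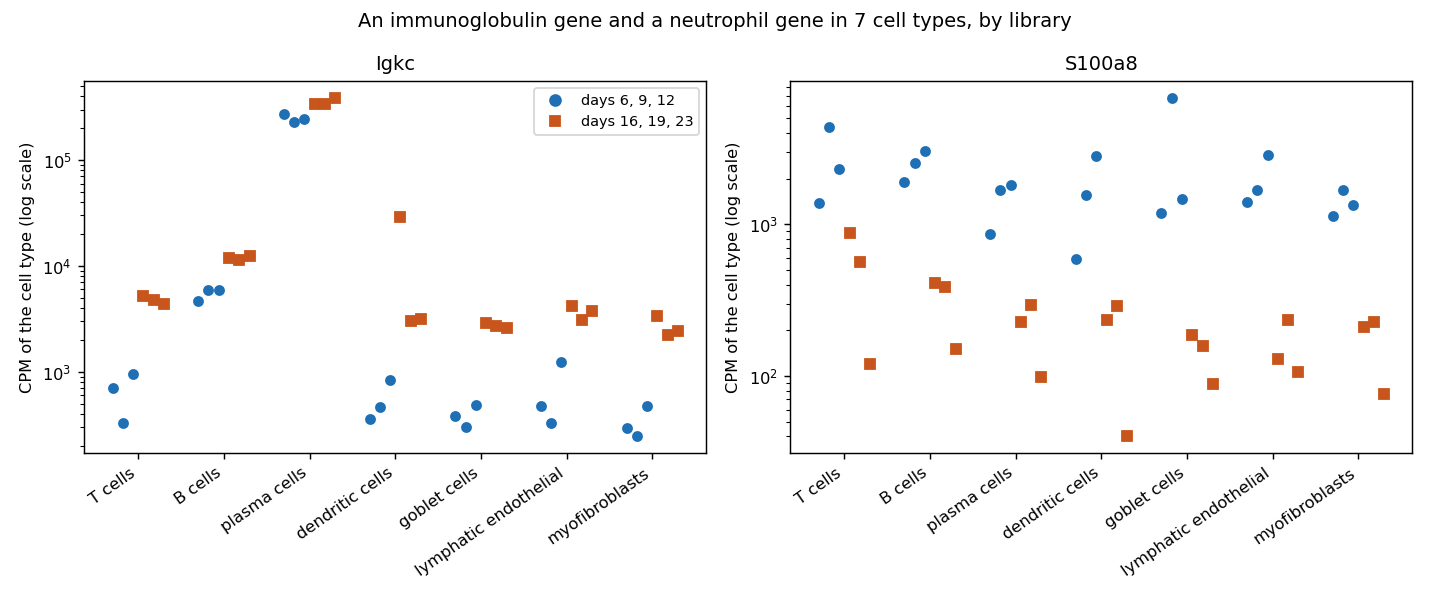
CPM of Igkc, an antibody gene of plasma and B cells, and of S100a8, a neutrophil gene, within 7 cell types (log vertical axes, 1 point per library). Circles are days 6, 9 and 12 and squares days 16, 19 and 23 in that order, and day 6 of the dendritic cells rests on 3 cells. In each of the 7 types, plasma cells included, Igkc lay higher in all late libraries, and S100a8 was highest in early ones with no overlap.

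Plasma cells had the largest called rise in share of the 28 types, from 35, 24 and 65 cells early to 250, 365 and 203 late. They carried their defining genes throughout: Jchain, which joins IgA dimers, was at 70615, 53327 and 46295 CPM early and 63980, 58990 and 77443 CPM late, and the sum of 5 plasma cell markers lay between 50430 and 80340 CPM in every library. None of the 10 identity genes was called (median log2 change 0.42, against 0.01 over all 6079 genes tested), and 1 was higher without overlap (3.19% of all genes). The largest change among them was that of Tnfrsf17, the BCMA receptor for the survival factors APRIL and BAFF, at 124, 90.4 and 159 CPM early and 161, 151 and 188 CPM late (log2 0.83 ± 0.25 (SE), edgeR adjusted p = 0.215). Antibody genes took 53.8%, 44.1% and 44.0% of plasma cell UMIs early and 56.8%, 56.7% and 64.7% late. The remaining genes together thus had a smaller share of the late UMIs, and the fitted log2 changes in plasma cells, which TMM scaling adjusts, sit 0.39 above the ratio of the CPM at the median. The genes of protein folding in the endoplasmic reticulum, 17 tested, had a median of 0.18 with none called. The 14 cell cycle genes had a median of -0.53 with none called and 4 of 14 lower without overlap, where 17.8% of all genes tested were, led by the topoisomerase Top2a (-1.21 ± 0.40, edgeR adjusted p = 0.492).

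IgA dominated in every library, and IgG chains took a larger part late without the test being able to call it. Igha made up 99.7%, 99.6% and 97.8% of the heavy chain UMIs of plasma cells early and 96.9%, 92.8% and 97.6% late. The IgG chains together made up 0.236%, 0.104% and 1.76% early and 2.30%, 7.07% and 2.34% late, so that all late libraries lay above all early ones, day 12 being close to day 16. The difference of 3.20 percentage points (0.70 ± 0.92% against 3.90 ± 2.74%, SD, n = 3 each) had an exact two-sided permutation p of 0.1, the smallest that the design allows. Ighg1 lay at 0.227%, 0.0384% and 0.254% early and 0.784%, 0.767% and 1.23% late (exact p = 0.1). Day 19 stood apart through Ighg2b, at 4.74% there and 1.51% and 0.279% on days 16 and 23, and Ighg2c, at 1.25% there. In single cells, Igha was the leading heavy chain in 34, 24 and 59 plasma cells early and 241, 337 and 198 late. Ighg2b led in 0, 0 and 2 cells early and in 4, 17 and 2 late, and Ighg2c in none early and in 0, 7 and 1 late, so the day 19 value rested on few of its 365 cells. The uninjured library had an IgG share of 0.144%, and the fresh libraries of days 7, 11 and 18 had 0.0506%, 0.631% and 6.69%, on 5, 8 and 244 plasma cells, so the first 2 rest on fewer than 10 cells. The shares rested on 32162, 36453 and 76836 heavy chain UMIs early and on 461727 to 471596 late.

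**Figure D3:**
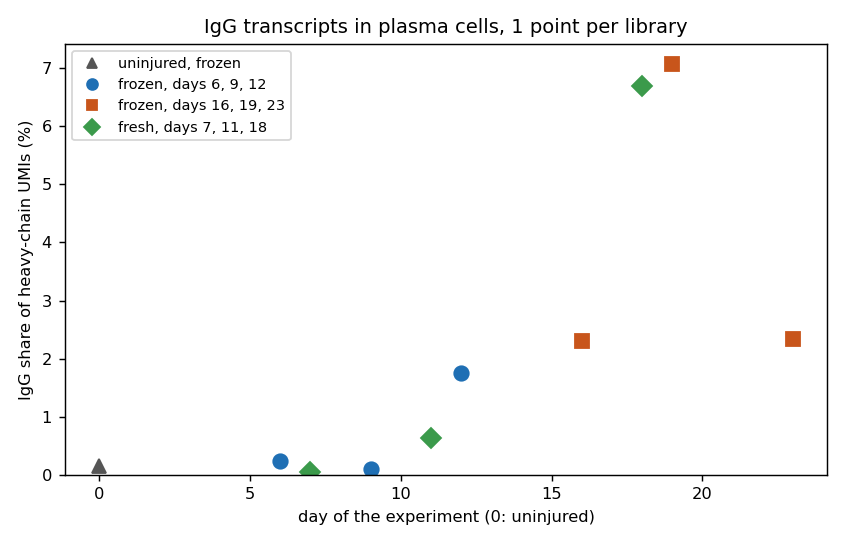
IgG share of heavy chain UMIs in plasma cells (%, vertical axis from 0) against day, 1 point per library, with the uninjured library at day 0. Both the frozen day 19 library (7.07%) and the fresh day 18 library (6.69%) stand above all others, and all libraries up to day 11 lie under 1%.

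Across all genes, 17 of 6079 were called in plasma cells (0.28%), 6 higher (0.0987%) and 11 lower (0.181%). Rnase2b (chr14:51162260-51163018 of the mm10 genome), of the eosinophil-associated ribonuclease family, rose from 1, 0 and 12 UMIs on days 6, 9 and 12 to 136, 168 and 206 UMIs on days 16, 19 and 23, in 1, 0 and 7 and 43, 44 and 34 cells. As CPM this was 5.37, 0 and 18.9 early and 42.2, 53.5 and 66.8 late (log2 2.78 ± 0.50 (SE), edgeR adjusted p = 0.0302). It had no UMI in the 37 uninjured plasma cells or in the fresh libraries of days 7 and 11, which held 5 and 8 plasma cells, and 307 UMIs in the 244 plasma cells of the fresh day 18. Of 5 eosinophil markers, Ccr3 and Epx had no UMI in plasma cells of the 6 frozen DSS libraries, while Il5ra, Siglecf and Prg2 had some. Prg2 was present on both sides (145, 105 and 42.5 and 76.4, 71.9 and 112 CPM). Genes of this ribonuclease family resemble each other closely, so counts may be split between them. The chemokine Ccl5 (chr11:83525778-83530518) rose from 21.5, 22.6 and 7.87 CPM to 29.5, 48.4 and 50.9 CPM (log2 1.96 ± 0.40 (SE), edgeR adjusted p = 0.0201), and the co-chaperone Dnajb1 (chr8:83608193-83612653) from 16.1, 31.1 and 31.5 CPM to 47.5, 53.8 and 86.3 CPM (log2 1.59 ± 0.34 (SE), edgeR adjusted p = 0.044). Both were free of overlap, but neither was called by DESeq2, and Ccl5 lost its call in 4 and Dnajb1 in 5 of 6 leave-outs (edgeR adjusted p up to 0.191 and 0.294). Other cells of the same libraries held more of both. Mean levels were 505 CPM there and 30.1 CPM in plasma cells for Ccl5, and 140 and 44.4 CPM for Dnajb1. The part of RNA of other cells in these rises was not tested. Rnase2b lost its call without day 6 or day 19 (adjusted p up to 0.366). The histone gene Hist1h2ac (chr13:23681467-23683948) was called too (log2 1.76 ± 0.37 (SE), edgeR adjusted p = 0.044), although its CPM overlapped, at 43.0, 8.48 and 29.9 early and 60.9, 97.0 and 40.2 late. The other 2 genes called higher were light chain variable segments.

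Of the 11 genes called lower in plasma cells, most belong to neutrophils and monocytes, such as Retnlg, from 107, 144 and 216 to 7.46, 9.86 and 6.81 CPM, and the neutrophil marker sum was 1521 to 3126 CPM early and 183 to 533 CPM late. The lysosomal membrane protein Laptm5, which in B cells lowers the surface level of the antigen receptor, fell from 193, 161 and 104 CPM to 44.1, 55.0 and 44.4 CPM (log2 -1.21 ± 0.24 (SE), edgeR adjusted p = 0.0131), and it was at 162 CPM in the uninjured library. Laptm5 was picked out after its values were seen, since it was not as high in plasma cells as in other cells. The part of RNA of other cells in its fall was not tested. Igfbp4 (chr11:99041244-99054392), which binds insulin-like growth factors, fell from 26.9, 42.4 and 9.45 to 3.42, 5.41 and 2.92 CPM (log2 -2.13 ± 0.48 (SE), edgeR adjusted p = 0.044). Its early values rested on 5, 15 and 6 UMIs, and it lost its call in 5 of 6 leave-outs (adjusted p up to 0.695). Other cells held Igfbp4 at a mean of 538 CPM, against 15.1 CPM in plasma cells, and it was called lower in 4 of 13 types. The part of RNA of other cells in its fall was not tested. The day 12 library weighed most on the count of calls, which was 29 without it, and it was 9 without day 9 or day 19, 8 without day 23 and 11 without day 6.

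Few genes that B cells themselves are known to use were called. They numbered 61, 271 and 324 early and 563, 687 and 577 late, with IgM (Ighm) at 1679.7, 1635 and 1707 CPM early and 1468, 1710.3 and 1988 CPM late, and IgD (Ighd) at 733, 692 and 726 CPM and 651, 702 and 585 CPM. Igha stood at 580.3, 225 and 702 CPM early and 3487, 3065 and 2617 CPM late and was thus above Ighm in every late library, as it was also called higher in 17 of 20 types. Of 5133 genes, 36 were called (0.701%), 9 higher (0.175%) and 27 lower (0.526%). Of those 9, 6 were antibody genes or Jchain, and of the 27 most were neutrophil or monocyte genes, with 3 of fibroblasts, Col1a2, Col3a1 and Dcn. The neutrophil sums given above and a fibroblast marker sum of 209.6 to 580.3 CPM early against 104 to 133 CPM late moved alongside them. The class-switched IgG2b chain Ighg2b was among the antibody genes, at 15.3, 7.86 and 31.5 CPM early and 99.4, 148 and 139.7 CPM late (log2 2.70 ± 0.32 (SE), edgeR adjusted p = 5.78e-14).

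Vgll4 (chr6:114860628-114969994), a cofactor that keeps TEAD transcription factors from acting with YAP, and the actin-binding calponin Cnn2 (chr10:79988584-79996062) were the called genes that B cells held at or above the level of other cells. Vgll4 rose from 15.3, 44.5 and 21.8 CPM on days 6, 9 and 12 to 49.7, 68.2 and 93.1 CPM on days 16, 19 and 23 (log2 1.17 ± 0.32 (SE), edgeR adjusted p = 0.0349). Day 9 lay close under day 16, and the fresh libraries held 68.7, 85.2 and 76.6 CPM on days 7, 11 and 18. Cnn2 rose from 76.4, 99.5 and 111 CPM to 154, 145 and 227 CPM without overlap (log2 0.78 ± 0.21 (SE), edgeR adjusted p = 0.0445). Neither was called by DESeq2, and each lost its call in 4 of 6 leave-outs, with edgeR adjusted p up to 0.677 for Vgll4 and 0.461 for Cnn2. Apoe, a lipid carrier that macrophages make in quantity, rose from 336, 312 and 412 CPM to 545, 799 and 1066 CPM (log2 1.17 ± 0.20 (SE), edgeR adjusted p = 3.49e-06), toward the 1497 CPM of the uninjured library. Apoe was named after its values were seen, since it was not as high in B cells as in other cells. It was called higher in 4 of 17 types. The macrophage marker sum, which does not include Apoe, overlapped between the sides (110.0 to 214 CPM early, 78.0 to 190.3 CPM late). The part of RNA of other cells in the rise of Apoe was not tested.

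Genes that B cells use to present antigen or to answer inflammatory signals shifted little. All 9 MHC class II genes had positive log2 changes with a median of 0.32 (0.01 over all genes), none called, and 3 of 9 higher without overlap, where 6.58% of all genes were. The invariant chain Cd74 was at 11895, 13857 and 10823 CPM early and 12794, 14577 and 20582 CPM late, highest on day 23 (log2 0.42 ± 0.22 (SE), edgeR adjusted p = 0.708). The 11 B cell identity genes had a median of 0.24 with none called, the largest being the IgM receptor Fcmr (0.50 ± 0.19, edgeR adjusted p = 0.378). Of 11 feedback genes of NF-kB, none was called, the median was -0.32 and 4 were lower without overlap (6.31% of all genes). Nfkbiz, an atypical inhibitor protein of that pathway, was at 76.4, 76.0 and 99.3 CPM early and 42.2, 49.5 and 50.6 CPM late (log2 -0.86 ± 0.26 (SE), edgeR adjusted p = 0.127), and Tnfaip3, the ubiquitin editor A20, at 107, 91.7 and 58.1 CPM and 44.7, 52.8 and 42.5 CPM (log2 -0.74 ± 0.27 (SE), edgeR adjusted p = 0.347). Of 9 genes listed for the germinal centre, where B cells mutate their antibodies, only 1 passed the count filter and was tested, and it was not called. Of the others, Rgs13 had 1, 0 and 0 UMIs early and 2, 4 and 36 late, and Mef2b had 0, 1 and 1 and 2, 3 and 31. On day 23 Rgs13 was found in 17 of 577 B cells. These values rest mostly on 1 library and were not tested.

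T cells numbered 58, 333 and 253 early and 400, 367 and 294 late, and only 14 of 5716 genes were called (0.245%), 8 higher (0.14%) and 6 lower (0.105%). Antibody genes and Mzb1 of plasma cells made up 4 of the 8, and the mucin gene Muc2 of goblet cells 1 more. The 6 lower ones, Hp, Alox5ap, Thbs1, Mgp, Cd14 and Slfn4, are genes of myeloid or stromal cells. Dusp14 (chr11:84048041-84069261), a phosphatase that dampens signalling from the T cell receptor, rose from 0, 1 and 3 UMIs early to 17, 31 and 20 UMIs late, found in 0, 1 and 3 and 12, 17 and 13 cells. As CPM it was 0, 1.11 and 6.24 early and 19.2, 45.8 and 30.9 late (log2 3.38 ± 0.61 (SE), edgeR adjusted p = 0.00605). No UMI was seen in the uninjured library, and the fresh libraries held 3.97, 7.91 and 4.62 CPM on days 7, 11 and 18. Chst12 (chr5:140505550-140525724), a sulfotransferase that builds chondroitin sulfate, rose from 23.3, 14.5 and 8.32 CPM to 52.9, 34.0 and 47.9 CPM (log2 1.76 ± 0.37 (SE), edgeR adjusted p = 0.0231). It was higher on the fresh day 18 (35.6 CPM) than on days 7 and 11 (16.3 and 11.0 CPM).

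Tff1 (chr17:31161395-31165277), a trefoil peptide secreted by mucous epithelium, rose in T cells from 0, 1 and 9 to 39, 30 and 26 UMIs (log2 2.55 ± 0.51 (SE), edgeR adjusted p = 0.0209), at 0, 1.11 and 18.7 CPM early and 43.9, 44.3 and 40.2 CPM late. The sum of 7 goblet cell markers in T cells overlapped between the sides, at 83.6 to 314 CPM early and 284 to 395 CPM late, and Tff1 stood at 0.341 CPM over all other cells of the 6 libraries, against 24.7 CPM in T cells. No other type had enough Tff1 to be tested. In the uninjured T cells it was at 329 CPM, on 18 UMIs, and in the fresh T cells Tff1 was at 26.9, 6.19 and 5.08 CPM on days 7, 11 and 18. Calls in T cells leaned on the day 9 library, the largest early one. Without it 3 genes were called and Dusp14, Chst12 and Tff1 were not (adjusted p 0.442, 0.285 and 0.718), and there were 27 calls without day 12 and 23 without day 16. DESeq2 called 6 genes, none of these 3.

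**Figure D4:**
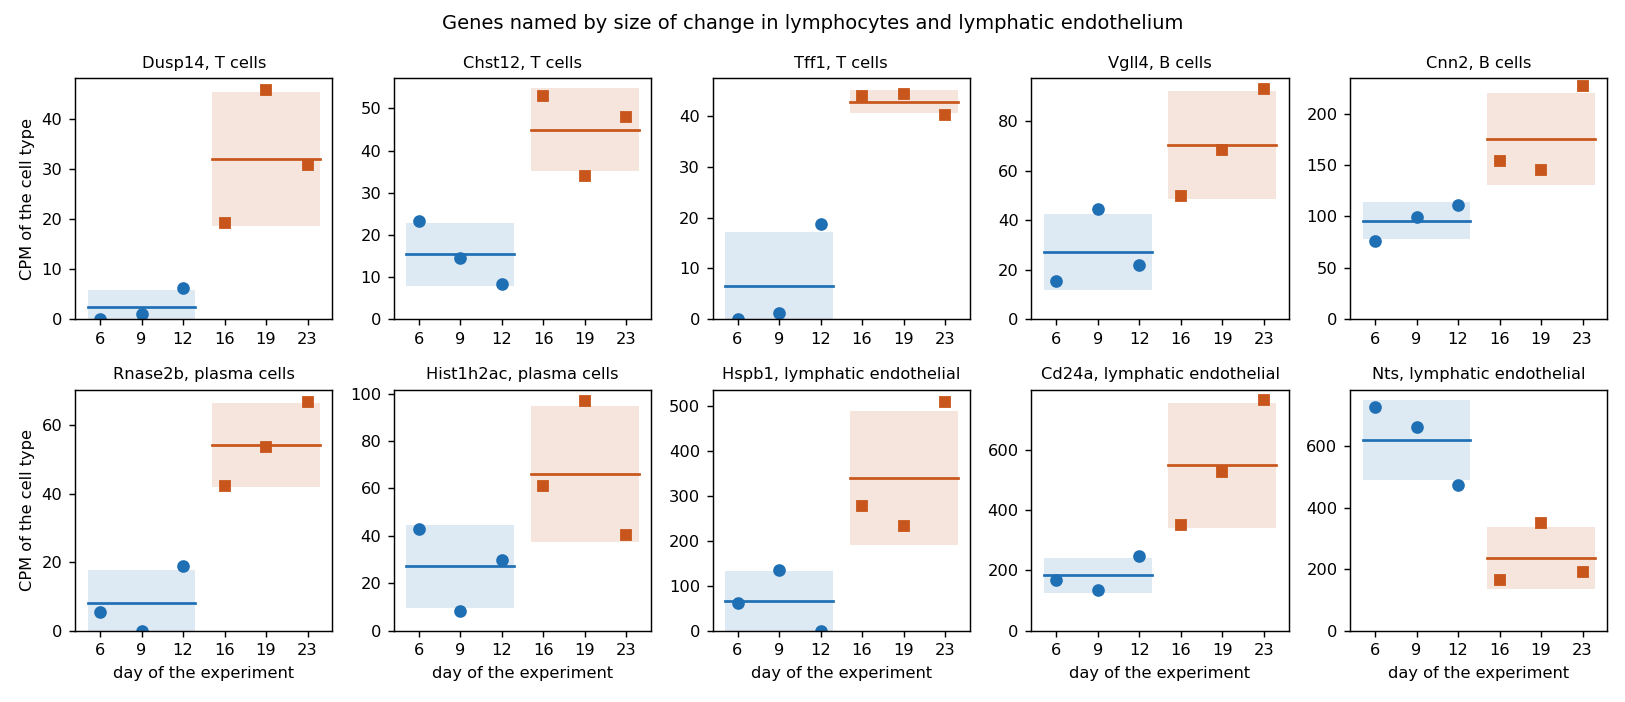
CPM by library (vertical axes from 0) of the 10 genes with the largest called changes in T cells, B cells, plasma cells and lymphatic endothelial cells, among those at least as high there as in other cells. Circles are early and squares late days, lines are means of 3 libraries and bands ± 1 SD. Nts is the only one of the 10 that is lower late, and only Hist1h2ac overlaps.

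The fixed programs of T cells were not called, though the T cell marker sum was higher late. Of 10 identity genes, 6 were higher without overlap (6.58% of all genes), with a median of 0.50 against 0.01 over all genes and none called. The adhesion receptor Cd2 was the largest, at 187, 327 and 333 CPM early and 449, 476 and 616 CPM late (log2 0.76 ± 0.21 (SE), edgeR adjusted p = 0.234), and the receptor chain Cd3e was at 268, 303 and 351 and 388, 436 and 531 CPM. As the T cell markers went from 2157 to 3408 CPM to 3658 to 4742 CPM in sum, the neutrophil sum given above fell in the same libraries. The 12 tested genes of regulatory T cells and checkpoints had a median of 0.38, none called, with the costimulatory receptor Tnfrsf4 (OX40) at 443, 353 and 343 CPM early and 568, 560.1 and 882 CPM late (log2 0.84 ± 0.21 (SE), edgeR adjusted p = 0.104). The lineage factor Foxp3 was level, at 46.6, 44.6 and 70.7 and 45.1, 47.3 and 69.5 CPM (log2 -0.05 ± 0.28).

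Cytokines of the type 17 response, which guard the barrier and recruit neutrophils, overlapped between the sides. Of 8 tested genes none was called and the median was -0.59. Il22, which drives epithelial repair, was at 3136, 157 and 484 CPM early and 161, 296 and 176 CPM late (log2 -2.36 ± 1.26 (SE), edgeR adjusted p = 0.888), and its UMIs on days 6, 9 and 12 (269, 141 and 233) came from 2, 15 and 18 cells. Il17a was at 268, 1387 and 1547 CPM early and 399, 329.5 and 659.5 CPM late, with day 6 under every late library (log2 -1.31 ± 0.68 (SE), edgeR adjusted p = 0.882). Of 15 tested cytotoxic genes none was called, and the median was -0.37. Granzyme B (Gzmb), which kills target cells, was at 396, 938 and 482 CPM early and 319.9, 446 and 374 CPM late (log2 -0.76 ± 0.28 (SE), edgeR adjusted p = 0.615), and the death ligand Fasl went the other way (0.99 ± 0.29, edgeR adjusted p = 0.283). Interferon gamma (Ifng) was at 2122, 598 and 636 and 1559, 1024 and 319.7 CPM. Of 12 tested targets of interferon gamma, none was called, the median was -0.36 and 3 were lower without overlap (5.51% of all genes). The class also held natural killer cell transcripts such as Ncr1, at 46.6, 24.5 and 18.7 and 24.8, 22.2 and 37.1 CPM, so it is not made of T cells alone.

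Goblet cells were few, 15, 16 and 10 early and 34, 47 and 78 late, and 6 of 3025 genes were called (0.198%), 4 higher (0.132%) and 2 lower (0.0661%). Of these, Igkc, Igha and Jchain rose and the neutrophil genes Retnlg and G0s2 fell. The only called gene that is epithelial was Sprr2a3, a small proline-rich protein of the cornified envelope family, which rose from 170.3, 81.2 and 109 CPM to 318, 452 and 519 CPM (log2 2.06 ± 0.32 (SE), edgeR adjusted p = 0.0049). Its counts were 11, 17 and 6 UMIs early and 101, 156 and 361 late. Sprr2a3 was named after its values were seen, since it was not as high in goblet cells as in other cells. The part of RNA of other cells in its rise was not tested. The uninjured goblet cells had 696 CPM, and near-identical neighbours of this gene may share its reads. The mucin Muc2, the main protein of colonic mucus, was at 19626, 15044 and 6647 CPM early and 11769, 17136 and 19985 CPM late (log2 0.30 ± 0.43 (SE), edgeR adjusted p = 1).

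The goblet cell products Fcgbp, Zg16 and Clca1 were lowest on day 12, but the sides were not separated by the test. The sum of 7 goblet cell markers, which adds Muc2, Spink4, Tff3 and Agr2 to them, was relatively less reduced on day 12. It was at 63100, 65720 and 43020 CPM early and 97170, 76970 and 70950 CPM late. Of 12 tested mucus genes, none was called and the median was 0.28, against 0.00 over all genes. The mucus protein Fcgbp was at 2678, 1730 and 255 CPM early and 6519.7, 3626 and 3248 CPM late (log2 1.61 ± 0.75 (SE), edgeR adjusted p = 1). The lectin Zg16 was at 9891, 9534 and 54.6 CPM and 28422, 14217 and 10058 CPM (log2 1.55 ± 1.52 (SE), edgeR adjusted p = 1) and the metalloprotease-like Clca1 at 2399, 1156 and 109 CPM and 4626, 2374 and 2628 CPM. Day 12 held 10 goblet cells, and the Zg16 UMIs were 639, 1995 and 3 on days 6, 9 and 12. Antimicrobial genes varied widely between days. Ang4, an angiogenin with antibacterial action, had 0, 18 and 0 UMIs early and 35, 87 and 627 late, and the lectin Reg3b 122, 149 and 1 early and 55, 11 and 2 late, neither called. Atoh1, the factor that commits cells to the secretory lineage, was at 31.0, 105 and 18.2 and 179, 75.4 and 149.5 CPM (log2 1.05 ± 0.47 (SE), edgeR adjusted p = 0.966), and the median of 9 tested goblet transcription factors was 0.07.

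None of the tested genes of antigen presentation was called in goblet cells. Of 6 tested MHC class I genes, 5 were higher without overlap (3.8% of all genes), and the median was 0.55. The heavy chain H2-K1 was at 727, 784 and 528 CPM early and 953, 910.1 and 904 CPM late (log2 0.52 ± 0.27 (SE), edgeR adjusted p = 1), and beta-2 microglobulin (B2m) at 479.8, 616 and 237 and 654, 638 and 902 CPM (log2 0.76 ± 0.30 (SE), edgeR adjusted p = 0.924). Cd74, the invariant chain of MHC class II, was at 155, 115 and 91.1 CPM early and 204, 278 and 338 CPM late (log2 1.30 ± 0.30 (SE), edgeR adjusted p = 0.121), and the 4 tested class II genes had a median of 1.21. The other 3, H2-Aa, H2-Ab1 and H2-Eb1, overlapped between the sides. Macrophages held Cd74 at a mean of 10251 CPM early and 20162 CPM late (log2 0.97 ± 0.19, edgeR adjusted p = 0.0192). B cells, whose share rose in the same libraries, held Cd74 at 11895, 13857 and 10823 CPM early and 12794, 14577 and 20582 CPM late, and the part of RNA of either type in the goblet cell counts was not tested. The count of calls in goblet cells was 23 without day 6, 16 without day 12, 11 without day 16 and 3 without day 19 or day 23.

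Tuft, enteroendocrine and glial cells were too few to test. Tuft cells (14, 3 and 9 early, 24, 16 and 32 late) held the kinase Dclk1 at 1296, 1292 and 1184 CPM early and 1419.7, 1413 and 1431 CPM late and the taste channel Trpm5 at 669, 497 and 507 and 574, 432 and 569.7 CPM. The cytokine Il25, by which tuft cells alert innate lymphocytes, had 1, 0 and 0 UMIs early and 8, 4 and 35 late. Glial cells numbered 3, 10 and 5 early and 5, 16 and 6 late. Enteroendocrine cells numbered 1 to 3 early and 2 to 6 late.

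Lymphatic endothelial cells expressed their defining genes on every day. They numbered 49, 15 and 23 early and 18, 19 and 21 late and held the hyaluronan receptor Lyve1 at 4202, 4614 and 4233 CPM early and 4708, 3438 and 2448 CPM late, and Prox1, the factor that sets lymphatic fate, at 505, 604 and 362 and 665, 703 and 553 CPM. None of 8 tested identity genes was called, and their median was -0.13. Of 784 genes tested, 11 were called (1.4%), 5 higher (0.638%) and 6 lower (0.765%). Of these, Igkc, Igha and Jchain rose and Retnlg, S100a8, S100a9 and Wfdc17 fell, all genes of other cells.

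Nts, Hspb1, Cd24a and Cxcl2 were the remaining 4. Nts (chr10:102481756-102490486) codes for neurotensin, a peptide best known from enteroendocrine cells and neurons, and fell from 95, 34 and 21 UMIs to 9, 18 and 9 UMIs, or 727, 662 and 475 CPM to 166, 352 and 192 CPM (log2 -1.37 ± 0.33 (SE), edgeR adjusted p = 0.0478). It came from 12, 5 and 3 cells early and 3, 3 and 3 cells late, and the uninjured lymphatic cells had 24.9 CPM. The fresh libraries held 352, 324 and 279 CPM on days 7, 11 and 18. The neutrophil-attracting chemokine Cxcl2 was named after its values were seen, since it was not as high in these cells as in others, and it was called lower in 3 of 20 types. It fell from 352, 526 and 475 to 166, 176 and 42.6 CPM (log2 -1.69 ± 0.41 (SE), edgeR adjusted p = 0.0478) and was 0 in the uninjured library, beside the neutrophil sums given above. Hspb1 (chr5:135887919-135889563), a small heat shock protein that protects actin filaments, rose from 61.2, 136 and 0 CPM to 277, 234 and 511 CPM on 8, 7 and 0 and 15, 12 and 24 UMIs (log2 2.35 ± 0.54 (SE), edgeR adjusted p = 0.0478). Cd24a (chr10:43578284-43584265), a surface glycoprotein frequent on epithelium and lymphocytes, rose from 168, 136 and 249 CPM to 351, 527 and 766 CPM (log2 1.63 ± 0.36 (SE), edgeR adjusted p = 0.028). Beside both, the sum of 7 goblet cell markers stood at 1485 and 1064 CPM on days 19 and 23 and at no more than 203 CPM elsewhere, and the part of epithelial RNA in Hspb1 and Cd24a was not tested. Day 19 also held 1563 CPM of macrophage markers. Each of Nts, Hspb1 and Cd24a lost its call in 4 of 6 leave-outs, with adjusted p up to 0.221, 0.299 and 0.136, and 7 genes were called in all without day 23. Nts was not called by DESeq2 or with the fresh libraries added and batch as a term. Neither Nts nor Hspb1 was called with day as a linear term or with immunoglobulin genes left out.

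Lymphatic genes of the immediate early and MHC class I lists were not called. Of 13 immediate early and heat shock genes tested, 12 had positive changes and 1 was higher without overlap (6.63% of all genes), with a median of 0.48 and the largest from Atf3 (1.12 ± 0.46, edgeR adjusted p = 0.423) and Fosb (0.98 ± 0.28, adjusted p = 0.152). Of 6 class I genes tested, 3 were lower without overlap (8.8% of all genes), with a median of -0.44, led by the peptide transporter Tap2 (-1.11 ± 0.40, adjusted p = 0.315).

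The cells annotated as dendritic held marker genes of plasmacytoid dendritic cells, the producers of type I interferon, and some of conventional ones. Siglech was at 1789 and 1794 CPM on days 9 and 12 and at 1474, 1708 and 1601 CPM late, Bst2 at 2886 and 3248 CPM and 3058, 3308 and 3593 CPM. Zbtb46 and Xcr1, which mark conventional dendritic cells, had no UMI in these cells of the 6 libraries. Clec9a, another such marker, had 0, 0 and 7 UMIs early and 4, 15 and 10 late. Flt3, H2-Aa, Cd209a and Ccr7, also on the list of 8 dendritic markers, had UMIs too. The whole list, Siglech included, summed to 3243 and 4552 CPM on days 9 and 12 and to 3572, 5284 and 4481 CPM late. With 3, 11 and 33 cells early and 33, 50 and 16 late, day 6 was left out, and 3 of 1991 genes were called (0.151%), none higher (0%, with 43 higher at an unadjusted edgeR p under 0.05) and 3 lower (0.151%). All 3, S100a9, Retnlg and Wfdc17, are neutrophil or monocyte genes, and the neutrophil sum was 2953 and 5121 CPM on days 9 and 12 and 188 to 639 CPM late. S100a9 went from 1230.2 and 1992 CPM to 274, 207 and 135 CPM (log2 -2.98 ± 0.26 (SE), edgeR adjusted p = 1.95e-07). The 8 plasmacytoid genes had a median of -0.23 with none called, and 2 were lower without overlap (9.54% of all genes). The homing receptor Ccr9 was at 1141 and 1114 CPM early and 1083, 1168 and 928 CPM late (log2 -0.13 ± 0.21). On day 16 Igkc stood at 28750 CPM and at 3013 and 3189 CPM on days 19 and 23, so 1 library held antibody RNA well beyond the others. The count was 6 without day 16. Leaving out day 9 or day 12 left 1 early library, too few for the rule of at least 2 a side.

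Most genes called in myofibroblasts were neither antibody nor neutrophil genes. This class numbered 10, 16 and 16 early and 11, 20 and 16 late and expressed the contractile genes Acta2 (smooth muscle actin), at 3779.8, 8228 and 8969.6 CPM early and 8119.8, 7715 and 9891 CPM late, and Myh11 (smooth muscle myosin), at 1211, 1266 and 1729.9 and 1839, 1538 and 2250 CPM. Of the pericyte genes, Notch3 had 2 UMIs in all 6 libraries, and Rgs5 was detected as well. Whether pericytes are among these cells was not tested. None of 9 tested contractile genes was called, with a median of 0.29. Fibroblast markers were high as well, 8094 to 12477 CPM early and 5738 to 8228 CPM late, and their part in the changes below was not tested. Of 831 genes tested, 15 were called (1.81%), 10 higher (1.2%) and 5 lower (0.602%). Only 4 of those were antibody or neutrophil genes, and no other described type had so many that it held at or above the level of other cells. Among types not described here, 2.92% of genes tested were called in Adamdec1/Bmp4 fibroblasts and 2.21% in Pi16/Pcolce2 fibroblasts.

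Fos, Junb and Btg2, immediate early genes whose transcripts appear within minutes of a stimulus, rose. The AP-1 subunit Fos was at 2422, 1688 and 2354 CPM on days 6, 9 and 12 and 5150.4, 4410.1 and 6403 CPM on days 16, 19 and 23 (log2 1.32 ± 0.25 (SE), edgeR adjusted p = 0.00626). Junb, its partner, rose from 734, 882 and 1329 CPM to 1708, 2496 and 2703 CPM (log2 1.20 ± 0.26 (SE), edgeR adjusted p = 0.0223). The antiproliferative factor Btg2 rose from 330.3, 288 and 448 CPM to 578, 1026 and 1057 CPM (log2 1.32 ± 0.32 (SE), edgeR adjusted p = 0.0359). For each of the 3 the lowest late library lay above the highest early one, and the uninjured library, at 4668, 1750.5 and 567 CPM, lay above all early ones. The fresh libraries of days 7, 11 and 18 held 3496, 2198 and 3187 CPM of Fos, 2791, 1426 and 1488 CPM of Junb and 671, 831 and 962 CPM of Btg2, so that only Btg2 was highest on day 18. The interaction of batch and side was not called for these 3 (edgeR adjusted p = 0.649, 0.565 and 0.844). In the Adamdec1/Bmp4 fibroblasts of the same libraries, Fos (log2 0.80 ± 0.16, edgeR adjusted p = 0.00487) and Btg2 (0.99 ± 0.18, adjusted p = 0.0018) were called higher too, and Junb was not (0.49 ± 0.16, adjusted p = 0.111). On the list of immediate early and heat shock genes, 2 of 12 tested were called and 6 were higher without overlap (7.46% of all genes), with a median of 0.75 against 0.00 over all genes. Zfp36, which destabilises cytokine messages, was at 550.5, 422 and 641 CPM early and 972, 1003 and 1299 CPM late (log2 1.02 ± 0.28 (SE), edgeR adjusted p = 0.067), and Atf3 at 110.1, 95.9 and 464 and 815, 661 and 619 CPM (log2 1.46 ± 0.45 (SE), edgeR adjusted p = 0.141).

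The promoters of these 3 called genes are given because they were searched for the cyclic AMP response element, a motif to which CREB and ATF factors bind. They were taken from RefSeq on GRCm38.p6, the mm10 build, as the 250 bases before and 50 bases after the gene start, 5′ to 3′ on the strand of the gene. Capitals mark the core TGACG or, in Btg2, the full palindrome TGACGTCA, which holds the core on both strands.
Fos (chr12:85473640-85473939, plus strand): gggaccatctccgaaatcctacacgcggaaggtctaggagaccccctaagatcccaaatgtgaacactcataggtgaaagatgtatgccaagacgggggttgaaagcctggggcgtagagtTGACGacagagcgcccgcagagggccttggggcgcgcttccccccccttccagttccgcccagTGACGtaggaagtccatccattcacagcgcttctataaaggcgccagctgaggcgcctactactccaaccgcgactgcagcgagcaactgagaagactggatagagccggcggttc
Junb (chr8:84978699-84978998, minus strand): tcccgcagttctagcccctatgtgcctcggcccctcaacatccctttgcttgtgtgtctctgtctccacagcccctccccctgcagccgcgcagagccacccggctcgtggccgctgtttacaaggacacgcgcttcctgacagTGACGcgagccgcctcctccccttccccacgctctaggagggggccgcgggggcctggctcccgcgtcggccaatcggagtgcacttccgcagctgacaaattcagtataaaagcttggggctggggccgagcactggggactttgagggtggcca
Btg2 (chr1:134079106-134079405, minus strand): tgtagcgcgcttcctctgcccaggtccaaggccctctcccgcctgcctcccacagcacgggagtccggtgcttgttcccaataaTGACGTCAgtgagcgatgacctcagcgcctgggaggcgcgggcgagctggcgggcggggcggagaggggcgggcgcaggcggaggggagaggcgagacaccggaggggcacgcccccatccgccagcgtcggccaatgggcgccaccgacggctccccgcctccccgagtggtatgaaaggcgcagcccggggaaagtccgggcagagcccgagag
Counted from the gene start, the core lay at -129 to -125 and -66 to -62 in Fos and at -106 to -102 in Junb, and the palindrome at -166 to -159 in Btg2. Of 11 genes named for their change in myofibroblasts, 9 had a promoter sequence, 4 of these held the core (the fourth being Cd63, which fell) and 1 the palindrome. On both strands of all 32851 promoters of this length, the core was found in 20.8% and the palindrome in 1.79%. The E-box CACGTG and the CArG box, also searched on both strands, were in none of the 9, and in 7.15% and 1.63% of all promoters. Bases beyond the 250 before and 50 after the gene start were not searched, so sites there would be missed. A match in these letters does not show that a factor was bound.

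Feedback, clock and matrix genes changed too. Socs3 (chr11:117966079-117970047), which shuts off JAK-STAT signalling, rose from 330.3, 173 and 208 CPM to 552, 581 and 649 CPM (log2 1.41 ± 0.33 (SE), edgeR adjusted p = 0.032). Sertad1 (chr7:27486910-27490316), a regulator of cyclin-dependent kinase 4, rose from 2, 3 and 4 UMIs to 8, 22 and 16 (log2 1.86 ± 0.46 (SE), edgeR adjusted p = 0.0432). Dbp (chr7:45705088-45710203), an output gene of the circadian clock, rose from 183, 57.5 and 112 CPM to 315, 387 and 438 CPM (log2 1.83 ± 0.41 (SE), edgeR adjusted p = 0.0266). Its uninjured level was 500.1 CPM, and the fresh libraries had 9.28, 41.2 and 26.9 CPM, under all late frozen ones, while the hour of sampling of each library is not given in the sources used here. Dbp was called higher in Adamdec1/Bmp4 fibroblasts as well (log2 2.25 ± 0.31, edgeR adjusted p = 6.26e-05), as was Tppp3, described next (1.15 ± 0.23, adjusted p = 0.00508). The clock repressor Nr1d1, the other tested gene of the clock list, had a log2 change of 0.04 ± 0.49.

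Tppp3 (chr8:105467493-105471526), a protein that bundles microtubules, rose from 367, 153 and 160.2 CPM to 631, 843 and 997 CPM (log2 2.02 ± 0.36 (SE), edgeR adjusted p = 0.00393), and Mfap5 (chr6:122505845-122529290), a glycoprotein of elastic microfibrils, from 220.2, 403 and 416 CPM to 867, 1026 and 966 CPM (log2 1.39 ± 0.29 (SE), edgeR adjusted p = 0.0182). The uninjured values, 750.2 and 1067 CPM, were close to the late ones. Mfap5 was called higher in 2 of 3 types, and Col4a1, described next, lower in 2 and higher in 1 of 8 types. Col4a1 (chr8:11198423-11312826), a collagen of basement membranes, fell from 1101, 1381 and 1778 CPM to 788, 684 and 649 CPM (log2 -1.05 ± 0.25 (SE), edgeR adjusted p = 0.032). Cd63 (chr10:128900989-128912822), a tetraspanin of endosomes, fell from 1872, 1649 and 1682 CPM to 736, 1037 and 921 CPM (log2 -0.92 ± 0.22 (SE), edgeR adjusted p = 0.032). Grem1 (chr2:113746164-113758646), which blocks bone morphogenetic proteins and so shapes the stem cell zone of the crypt, fell from 404, 575 and 1586 CPM to 158, 45.6 and 45.3 CPM (log2 -3.66 ± 0.66 (SE), edgeR adjusted p = 0.0247). Its UMIs, 11, 30 and 99 early and 6, 4 and 3 late, came from only 3, 4 and 2 and 2, 1 and 2 cells, so the 99 UMIs of day 12 are 2 cells, and the uninjured library had none. The late CPM of these 3 genes lay under the early CPM without overlap, as did 7.1% of all genes in that direction. All 11 genes named here kept their direction in every leave-out. Each lost its call in at least 1 of the 6, most often without day 9 or day 23, with adjusted p up to 0.0516 for Tppp3, 0.0652 for Fos, 0.0832 for Mfap5, 0.131 for Junb, 0.172 for Dbp, 0.229 for Socs3 and Btg2, 0.146 for Col4a1, 0.198 for Cd63, 0.25 for Grem1 and 0.459 for Sertad1. DESeq2 did not call Sertad1, Dbp, Socs3 or Cd63. There were 32 calls without day 6 and 5 without day 23. With the fresh libraries added and batch as a term, 6 genes were called, among these 11 only Tppp3.

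**Figure D5:**
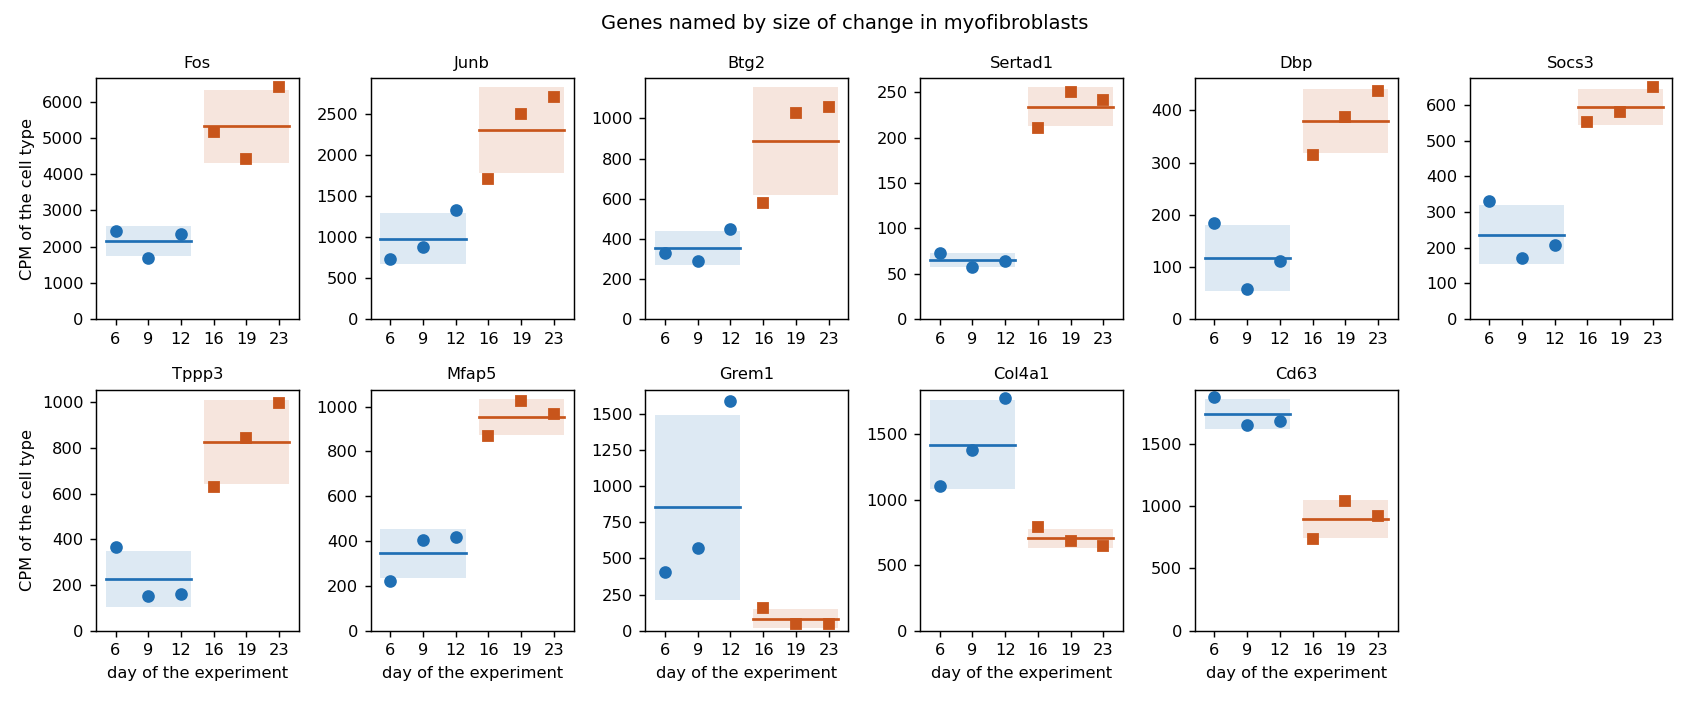
CPM by library (vertical axes from 0) of the 11 genes named for their change in myofibroblasts, with circles for early and squares for late days, lines for means of 3 libraries and bands for ± 1 SD. The first 8 panels are higher and the last 3 lower in every late library, and Grem1 varies most within a side, from 404 to 1586 CPM early.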

How the data were processed

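RNA of single cells from mouse colon mucosa was measured with 10x Genomics 3' chemistry, in which each captured molecule carries a unique molecular identifier. The authors deposited a matrix of raw UMI counts per gene and cell together with a cell table that gives library, batch and cell type. Cell Ranger 3.0.0 and the mm10 build are named in the submitters' processing notes, and the deposited cells hold at least 498 UMIs. Of 30406 gene entries, 597 that name no gene (0.507% of UMIs) were left out. From the 14 libraries of the cell table, 3 with 12621 cells matched no sample and were not used here.

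Counts were summed per library and annotated type, over libraries with at least 10 cells of it, and a type was tested with at least 2 libraries a side. Tests were edgeR 4.0.16 (TMM scaling, filterByExpr, robust quasi-likelihood) in R 4.3.3, with Benjamini-Hochberg adjustment over all genes tested in a type at 0.05. Shares were tested by edgeR quasi-likelihood on cell counts over 28 types, beside exact two-sided permutation tests. For shares the library size was the total of cells, and neither TMM scaling nor filterByExpr was used in the main test. Alternatives were DESeq2 1.42.0, no filter on low counts, at least 20 cells, day as a linear term, the 9 DSS libraries with a batch term, TMM scaling of cell counts and leaving out each library. Immunoglobulin genes left out, and the interaction of batch and side, were chosen after seeing the data. The edgeR steps were tested on simulated data: at a log2 change of 2, 95.5% of changed genes were recovered in T cells, 79.1% in plasma cells and 94.5% in myofibroblasts. At the adjusted p of 0.05, false calls were 7.8% of all calls in lymphatic, 6.74% in T, 6.1% in dendritic and 5.62% in B cells. They were 4.23% in plasma cells, 3.57% in myofibroblasts and 2.05% in goblet cells. The simulated counts were drawn with dispersions fitted to these data and without a time course within a side. These percentages hold for that setting and are not error rates of the calls reported here.

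Members, gene lists and tests were chosen with earlier results of these data known. Genes were named per type as the 8 highest and 8 lowest called log2 changes among genes at least as high in that type as in all other cells of the same libraries. Predicted genes, mitochondrial genes and variable segments were counted but not named. Members of a described list were named where called, and otherwise the 2 to 4 with the largest change. Gene positions are from GENCODE on mm10. Doublets were not called here, and whether the authors removed them is not given in the sources used here.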

Additional observations from a re-analysis of the deposited data

Results flagged for a closer look

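In 9 cases the late-against-early change of the frozen libraries stood beside fresh libraries (days 7, 11 and 18) that moved the other way or by another amount. In goblet cells the log2 changes of Igkc (2.92), Igha (2.29) and Jchain (2.37) were exceeded in the fresh libraries, where Igkc went from 19.8 and 28.7 to 2440.4 CPM, Igha from 9.38 and 5.52 to 1025 CPM and Jchain from 1.56 and 1.47 to 257 CPM. The interaction of batch and side was called for these 3 (edgeR adjusted p = 0.0441, 0.0441 and 0.0289), among 4 of 4054 genes in goblet cells.

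For the other 6 the fresh day 18 lay on the far side of both days 7 and 11 from where the frozen change pointed, by little for Mfap5, and no interaction was called where it was tested. In T cells Tff1 changed by 2.55 in the frozen libraries and was at 26.9, 6.19 and 5.08 CPM in the fresh ones (edgeR interaction adjusted p = 1). In B cells Ighg1 changed by 1.85 and was at 12.8, 9.13 and 1.22 CPM in the fresh ones (adjusted p = 0.0953 by edgeR). In myofibroblasts Grem1 changed by -3.66, against 40.2, 247 and 344 CPM (adjusted p = 0.565, edgeR), Mfap5 by 1.39, against 565, 696 and 561 CPM (adjusted p = 0.553, edgeR), and Sertad1 by 1.86, against 256, 130.1 and 114 CPM (adjusted p = 0.396, edgeR). In plasma cells Igfbp4 changed by -2.13 and was at 10.4, 3.59 and 12.3 CPM in the fresh libraries, on 2, 1 and 73 UMIs and only 5 and 8 cells on days 7 and 11, a difference that was not tested.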

How the results depend on the processing

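No called result changed direction. Among those not called, the shares of lymphatic, enteroendocrine, glial, dividing T cells and myofibroblasts and the Ighm part of heavy chains changed sign in at least 1 setting, the lymphatic share from a log2 change of -0.85 to 0.21 without day 6. DESeq2 called 6 genes in T cells and 11 in goblet cells (edgeR 14 and 6). With no filter on low counts, 46 genes were called in T cells, 55 in B cells, 63 in plasma cells, 8 in dendritic cells, 24 in lymphatic cells and 60 in goblet cells. With day as a linear term the counts were 39 in T cells, 86 in B cells, 43 in plasma cells, 2 in lymphatic cells and 8 in myofibroblasts. With the 9 DSS libraries and a batch term they were 29 in plasma cells, 0 in dendritic cells by edgeR (93 at an unadjusted p under 0.05; DESeq2 on the 6 libraries called 2), 1 in goblet cells and 6 in myofibroblasts, and the B cell and neutrophil shares had log2 changes of 1.14 and -1.32, not called. Leaving out immunoglobulin genes gave 5 calls in lymphatic and 2 in goblet cells. TMM scaling gave share changes of 1.03 for B cells and 1.44 for goblet cells, not called. Leaving out each library gave 3 to 27 calls in T cells, 26 to 48 in B cells, 8 to 29 in plasma cells, 2 to 18 in dendritic cells (the 7 without day 9 and the 18 without day 12 with 1 early library, assumed to vary like the others, and 2 to 6 otherwise), 7 to 15 in lymphatic cells, 3 to 23 in goblet cells and 5 to 32 in myofibroblasts. The share changes then ranged from 1.21 to 1.92 for B cells, 1.32 to 2.26 for goblet cells, -1.71 to -1.28 for neutrophils, 0.78 to 2.19 for tuft cells and 0.69 to 2.12 for dendritic cells, and from 2.21 to 2.88 for plasma cells. Of the 21 genes named for the size of their change, all kept direction and none kept its call under all 6 leave-outs. The cause of these moves was not tested. No paired analysis was possible because the libraries are different days and their replicate numbers are only names. Simulated log2 changes of 1 were recovered for 26.9% of genes in goblet cells, 28.4% in plasma cells and 43.3% to 58.2% in the other described types.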

Other observations

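Dividing T cells, a separate class of the annotation, had 10 of 1752 genes called (0.571%) between days 9 and 12 and days 16 and 19, the libraries with at least 10 such cells. The genes given here were chosen after their values were seen. Tnfsf8, the ligand of CD30, was at 14.4 and 58.4 CPM early and 295 and 242 CPM late (log2 3.54 ± 0.55, SE, edgeR adjusted p = 0.000744), on 4, 3, 42 and 25 UMIs in 2, 3, 3 and 4 cells. Tnfsf11 (RANKL), which induces M cells and osteoclasts, was at 35.9 and 38.9 CPM early and 239 and 368 CPM late (log2 2.99 ± 0.47, edgeR adjusted p = 0.000795). Tnfrsf18 (GITR), a receptor of regulatory and activated T cells, rose from 108 and 77.8 CPM to 316 and 397 CPM (log2 1.80 ± 0.38, edgeR adjusted p = 0.0231). The fresh libraries of days 7, 11 and 18 had 40.5, 23.4 and 96.2 CPM of Tnfsf8 and 64.6, 27.3 and 101 CPM of Tnfsf11, while Tnfrsf18, at 242, 183 and 226 CPM, was not highest on day 18. In the other T cells none of these 3 was called, with log2 changes of 0.85, 1.19 and 0.63 (edgeR adjusted p = 0.933, 0.840 and 0.460), and the difference between the classes was not tested.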
